A study of Mus musculus with 5 samples.

Results

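Igfbp2, Igfbp5 and Igfbpl1, genes of the insulin-like growth factor (IGF) binding protein family, were followed in the developing mouse cerebellum. They were selected by gene symbol: each is the single symbol of 1 probe, so the genes followed are 3 of the 897 probes and 3 of the 773 genes that the table names. Another family gene on the array, Igfbp4, was not among the 3 and is described with the IGF pathway. Total RNA of the cerebellum was hybridised to arrays before birth, on embryonic day 18 (E18), and after it, on postnatal day 7 (P7), 14 (P14), 21 (P21) and 56 (P56). Each of these 5 ages is 1 sample, for which the authors deposited a signal averaged over 2 array experiments. No source used here gives the strain, genotype, sex or any treatment or pooling of the animals.

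The values run between 0.01 and 100 over the table and were read as the mean of 2 experiments, each in percent of the probe's highest age in that experiment. A probe then reaches 100 at the age where both experiments peaked, as Igfbp2, Igfbp5, Igfbpl1 and 417 other probes do. The other 477 probes, Igfbp4 among them, have a highest value between 67.0 and 100, which this reading allows where the experiments peaked at different ages. Igfbp2 can therefore be set against itself at other ages, but its level cannot be set against that of Igfbp5. A probe was called higher or lower when 2 ages differed by 2-fold or more, with values under 1% set to 1%, so that the fold is then written as "at least". With 1 column per age there is no replicate check and no test, and precision is limited by the number of arrays. The median probe stood at 84.5%, 82.8%, 55.5%, 42.3% and 42.0% from E18 to P56, so a gene that kept pace with the table as a whole would be lower in the older tissue.

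IGF binding proteins are secreted proteins that hold IGF-I and IGF-II outside the cell and set how much ligand reaches the IGF-I receptor. Proteases that cut them release the ligand, and several of them also bind matrix or cell surface molecules. In the cerebellum, IGF signalling is known for its part in the division and survival of granule cell precursors, which multiply in the outer layer around birth and then leave the cell cycle. Igfbp2 encodes a protein with an integrin-binding site that is made by choroid plexus, meninges and glia, and Igfbp5 one that binds heparin and matrix. Igfbpl1 encodes an IGF binding protein-like protein known in mouse from newly formed neurons.

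Igfbp2 and Igfbp5 lie next to each other on chromosome 1, with 0 protein-coding genes between them in the RefSeq table of GRCm38.p6, on opposite strands with their 3′ ends facing, and Igfbpl1 lies on chromosome 4. Since these neighbours parted in their time courses, the 250 bases before the start of each are shown, 5′ to 3′ on the gene's own strand, from RefSeq (GRCm38.p6), with motif matches in capitals. Igfbp2 has a second RefSeq start that is not shown, and Igfbpl1 is named only.
Igfbp2, chr1:72824230-72824479, plus strand: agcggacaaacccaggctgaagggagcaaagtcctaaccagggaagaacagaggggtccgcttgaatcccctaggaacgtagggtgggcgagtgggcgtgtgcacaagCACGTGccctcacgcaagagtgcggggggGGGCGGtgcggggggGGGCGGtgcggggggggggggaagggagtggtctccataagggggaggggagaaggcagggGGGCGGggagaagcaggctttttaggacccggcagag
Igfbp5, chr1:72874866-72875115, minus strand: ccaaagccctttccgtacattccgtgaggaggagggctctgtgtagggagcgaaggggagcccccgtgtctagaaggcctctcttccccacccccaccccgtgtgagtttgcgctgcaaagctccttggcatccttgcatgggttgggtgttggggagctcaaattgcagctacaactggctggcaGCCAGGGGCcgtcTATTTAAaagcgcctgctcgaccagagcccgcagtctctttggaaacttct

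The motifs searched on both strands were the TATA box letters TATAAA and a related form TATTTAA, the E-box CACGTG, the GC box GGGCGG, and the letters GCCNNNGGC, known as a site of AP-2 factors. The TATTTAA form was added after the sequence had been read. In the Igfbp2 window, CACGTG stood at bases 142 to 137 before the start, and GGGCGG began at 113, 98 and 37 bases before it. In the Igfbp5 window, GCCNNNGGC stood at bases 64 to 56 and TATTTAA at bases 51 to 45 before the start. The matches shown do not overlap. Of 32851 windows of this length, 6.02% held CACGTG and 32.7% held GGGCGG. GCCNNNGGC was held by 13.7% of windows, TATTTAA by 4.18% and TATAAA by 12.4%, and TATAAA was in neither window shown. GC made up 67.2% of the Igfbp2 window and 58.8% of the Igfbp5 window, against a median of 52.4% over all windows. The window before the second Igfbp2 start, which is not shown, held none of the motifs searched and had 56.4% GC. These matches describe the letters alone.

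Igfbp2 stood at 100% at E18, 70.8% at P7, 23.1% at P14, 20.2% at P21 and 27.7% at P56. The 3 later ages lay within 7.41 points of each other, and both early ages lay above them. Igfbp2 was 3.62-fold lower at P56 than at E18 (log2 difference -1.85), and 171 of the 897 probes (19.1%) had a more negative difference. The step past 2-fold was P14 against P7, where it was 3.06-fold lower (log2 -1.61, with 11.1% of probes more negative). At P7 against E18 it stayed within 2-fold, with 70.8% against 100% (log2 -0.50), and 10.8% of probes were more negative at that step. The later steps also stayed within 2-fold: 20.2% at P21 against 23.1% at P14, and 27.7% at P56 against 20.2% at P21.

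Igfbp5 stood at 100% at E18, 73.2% at P7, 45.2% at P14, 66.8% at P21 and 76.2% at P56. It was lowest at P14, and at P56 it stood above its own P7 value. No step between neighbouring ages reached 2-fold, and neither did P56 against E18, where the log2 difference was -0.39. The one comparison past 2-fold was P14 against E18, which was added after the values were seen: Igfbp5 was 2.21-fold lower (log2 -1.15). With columns divided by their medians this call ended (log2 -0.54), and with quantile normalization it stood at -1.03. The return was smaller than 2-fold, with 76.2% at P56 against 45.2% at P14 (1.69-fold, log2 0.75), in a comparison also added after the values were seen. With columns divided by their medians it was past 2-fold (log2 1.16), where 10.4% of probes were called higher and 7.58% lower. With quantile normalization the return stayed within 2-fold (0.81). Of the 897 probes, 56 (6.24%) were lowest at P14, and 37 (4.12%) were highest at E18 and lowest at P14.

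Igfbpl1 stood at 61.0% at E18, 100% at P7, 10.7% at P14, 0.57% at P21 and 0.03% at P56. It peaked a week after birth and was under 1% at both later ages, as 3 of the 897 probes were; the other two were those of Ccnd2, the cyclin D2 gene, and Ncaph, a condensin subunit gene. At P7 it was 1.64-fold above E18 (log2 0.71), which is within 2-fold (log2 1.08 with quantile normalization), although 90.1% of probes had a lower difference. It then fell 9.36-fold at P14 against P7 (log2 -3.23), and 12 of the 897 probes fell by more. It was at least 10.68-fold lower at P21 than at P14, a bound set by the 1% limit. That value depended on the processing: with quantile normalization it was 2.20-fold lower (log2 -1.14), and with the 10th percentile of all values as floor both ages lay at the floor. Its P56 value was below that of E18 by at least 61.0-fold and below that of P7 by at least 100-fold, the largest fold that the 1% limit allows. The RNA is of whole tissue, so fewer cells that make a transcript and less transcript per cell cannot be told apart for any of these genes.

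**Figure D1:**
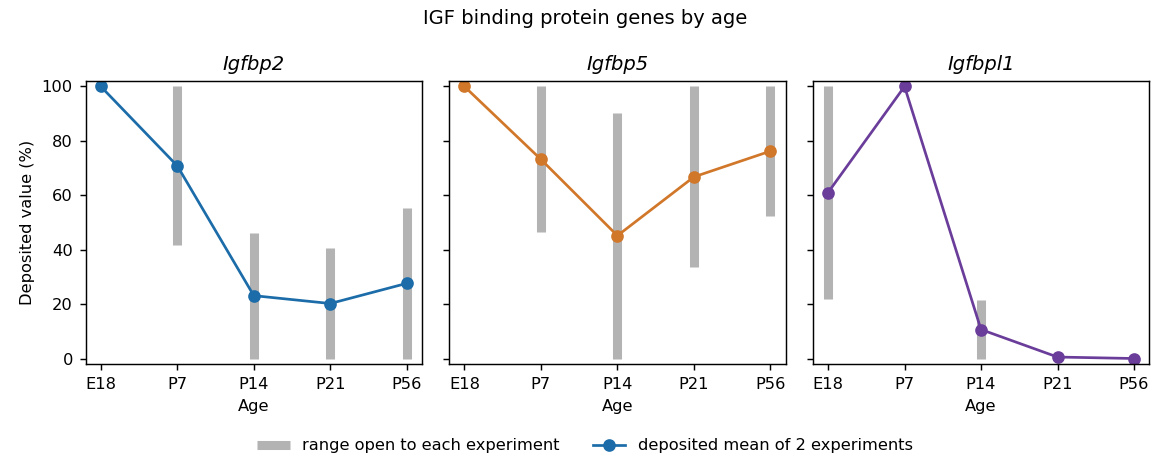
Deposited values of Igfbp2, Igfbp5 and Igfbpl1 at the 5 ages, in percent (points; ages are evenly spaced), with grey bars for the range in which each of the 2 averaged experiments must lie if both are between 0 and 100. Igfbp2 drops to 23.1% at P14 and stays low, Igfbp5 is lowest at P14 (45.2%) and stands at 76.2% at P56, and Igfbpl1 peaks at P7 and is at 0.03% at P56.

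The percent scale itself sets limits on the 2 experiments behind each mean. If each was scaled to between 0 and 100, a mean of 100% requires both at 100%, and a gap between 2 means of over 50 points requires both to have moved the same way. For Igfbp2, each experiment was then at most 46.3% at P14, 40.5% at P21 and 55.3% at P56, against 100% at E18. These limits make each experiment at least 2.16-fold, 2.47-fold and 1.81-fold lower than at E18. The step of Igfbp2 from P7 to P14 is not fixed in this way. Each experiment could lie between 41.6% and 100% at P7 and between 0% and 46.3% at P14. For Igfbp5, each experiment was at most 90.4% at P14 against 100% at E18, a drop of at least 1.11-fold. Its return is not fixed in this way, since each experiment could lie between 52.5% and 100% at P56 and between 0% and 90.4% at P14. For Igfbpl1, each experiment was at most 21.4% at P14 against 100% at P7, at least 4.68-fold lower, and at most 0.06% at P56 against at least 22.0% at E18. The higher value of Igfbpl1 at P7 than at E18 is a matter of at least 1 experiment, since each could lie between 22.0% and 100% at E18.

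Set beside the whole table, 2 of the 3 genes were lower at P56 than at E18, Igfbp2 and Igfbpl1, where 52.5% of all probes were lower by 2-fold or more and 22.6% were higher. Igfbpl1 lay near the lower end of the table, with 5 of the 897 probes more negative. At P7 against E18, 0 of the 3 were called, and 2.79% of all probes were called lower and 5.8% higher. At P14 against P7, 2 of the 3 were lower, again Igfbp2 and Igfbpl1, against 24.7% of all probes lower and 14.4% higher. At P21 against P14, 1 of the 3 was lower, Igfbpl1, against 13.2% of all probes lower and 3.23% higher. At P56 against P21, 0 of the 3 were called, with 2.23% of probes lower and 2.68% higher. At P14 against E18 all 3 genes were lower, against 31.3% of all probes lower and 19.8% higher. Dividing each column by its median left 2 of the 3 lower there, Igfbp2 and Igfbpl1, against 13.5% of probes lower and 28% higher. At P56 against P7 2 of the 3 were lower, Igfbp2 (2.56-fold) and Igfbpl1, against 52.3% of all probes lower and 18.8% higher, while Igfbp5 stood at 76.2% at P56 and 73.2% at P7. The call for Igfbp2 at P56 against P7 ended with columns divided by their medians (log2 -0.38) and with quantile normalization (-0.55). The first of these scalings, under which 15.7% of probes were lower and 30.2% higher, put Igfbp5 past 2-fold (1.04).

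**Figure D2:**
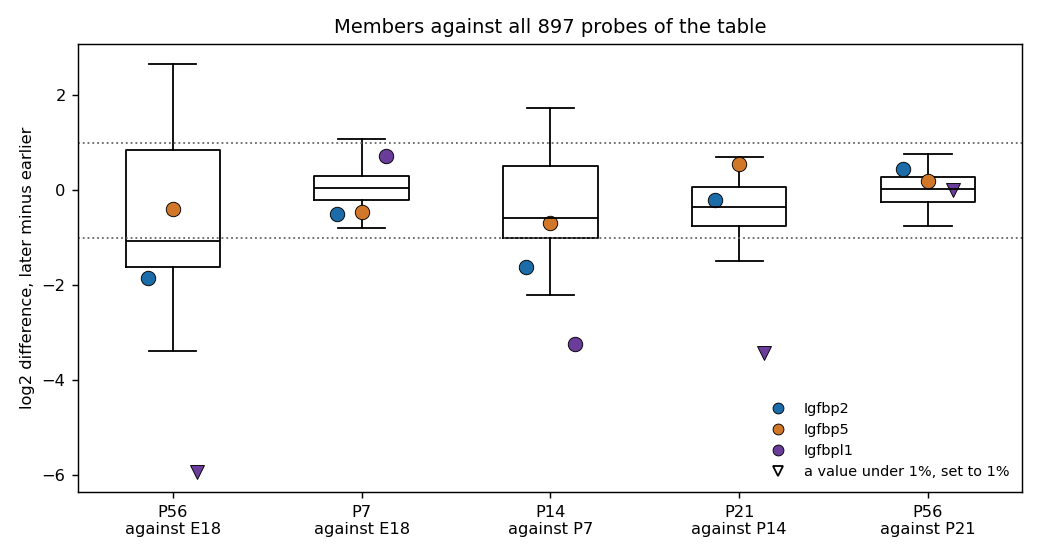
Log2 differences (later minus earlier age) of the 3 genes as coloured points in 5 comparisons, over boxes of all 897 probes (box, quartiles; line, median; whiskers, 5th to 95th percentile; dotted lines, 2-fold; triangles, differences with a value under 1% set to 1%). Igfbpl1 lies below the whiskers in P56 against E18, P14 against P7 and P21 against P14, while Igfbp5 is inside the whiskers and within the dotted lines in all 5 comparisons.

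The median probe itself was lower by 1.07 (log2) at P56 than at E18, and no source used here gives the scaling between columns. Relative to that median, Igfbpl1 differed by -4.86 (a bound), Igfbp2 by -0.78 and Igfbp5 by 0.68. Dividing each column by its median thus ended the call for Igfbp2 (log2 -0.85), with 16.4% of probes lower and 30.3% higher, and turned Igfbp5 to 0.62. Quantile normalization kept the call for Igfbp2 (-1.40), with 23% of probes lower and 27.4% higher, and left Igfbp5 at -0.22. The fall of Igfbp2 at P14 against P7 was past 2-fold under both scalings, at -1.04 with columns divided by their medians (11.7% of probes lower and 26.5% higher) and at -1.43 with quantile normalization (18.3% lower and 25% higher).

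The 3 genes did not follow one course. From E18 to P7 Igfbp2 and Igfbp5 took similar values, 70.8% and 73.2% at P7, while Igfbpl1 stood at its highest. From P14 on Igfbp2 and Igfbp5 parted, with 27.7% and 76.2% at P56. The mean absolute difference between 2 profiles over the 5 ages was 23.9 points for Igfbp2 and Igfbp5, 25.6 points for Igfbp2 and Igfbpl1, and 48.5 points for Igfbp5 and Igfbpl1. The median over all pairs of probes was 26.5 points, and 80.2% of all pairs were closer than Igfbp5 and Igfbpl1. Within the family the closest pair was Igfbp2 and Igfbp4, at 13.6 points.

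The probes with the most similar profile were taken as the 5 named probes, outside the family members followed here, with the smallest mean absolute difference over the 5 ages. Nearest to Igfbp2 was 1 of the 2 probes of Ccnd1, the cyclin D1 gene, at 1.61 points, with 100%, 71.7%, 26.1%, 24.1% and 27.3% from E18 to P56. Averaged over its 2 probes, Ccnd1 stood at 98.05%, 80.85%, 24.88%, 23.8% and 23.6%, so the other probe was higher at P7. After the nearest probe came Nap1l1, a histone chaperone gene (3.31 points), and Notch3, a Notch receptor gene of mural cells (3.70 points). Fstl1, which encodes a secreted follistatin-like protein, and Mab21l2 both lay at 4.18 points. Likeness to Igfbp2 chose these probes, so their shared shape is no finding; 138 of the 897 probes (15.4%) were highest at E18 and lowest at P21, as Igfbp2 was.

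The 5 named probes nearest to Igfbpl1 on the percent scale were those of genes of dividing cells. On the log2 scale, 2 of these 5 remained among the nearest. Ncaph lay at 2.31 points, Mki67, the gene of the proliferation marker Ki-67, at 2.37 points, and Ccnd2 at 2.44 points, followed by Cdca7 at 3.38 and Cdc20, an activator of the anaphase-promoting complex, at 3.44 points. Mki67 stood at 57.2%, 100%, 7.93%, 3.74% and 2.16% from E18 to P56. Ccnd2 stood at 49.5%, 100%, 10.1%, 0.5% and 0.03%. Among the 20 nearest named probes of Igfbpl1, 8 were of genes in the list of dividing cells. The 19 measured genes of that list make up 2.46% of the named genes. Ccnd2 of the granule cell progenitor list and Pdgfra of the oligodendrocyte list were also among the 20. Of the 12 measured genes for immature neurons, 0 were among them. These probes were chosen by likeness to Igfbpl1, so their shared shape is no finding. Of all probes, 148 (16.5%) were highest at P7 and lowest at P56, as Igfbpl1 was. All 19 genes of the list of dividing cells were lower at P14 than at P7, and that list was chosen with earlier results of these data known.

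The nearest probes of Igfbp5 lay farther off. The first, Plxnb2, a semaphorin receptor gene, lay at 5.41 points and differed by 17.9 points at P56, where it stood at 58.4%. Arl3, a small GTPase gene of cilia, lay at 7.20 points, Tnks1bp1 at 7.90, Ccz1, which encodes part of an activator of the endosomal GTPase Rab7, at 8.37 and Pole4, a DNA polymerase epsilon subunit gene, at 9.02. Of these, Arl3 was closest in its return, with 45.5% at P14, 58.6% at P21 and 72.5% at P56.

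**Figure D3:**
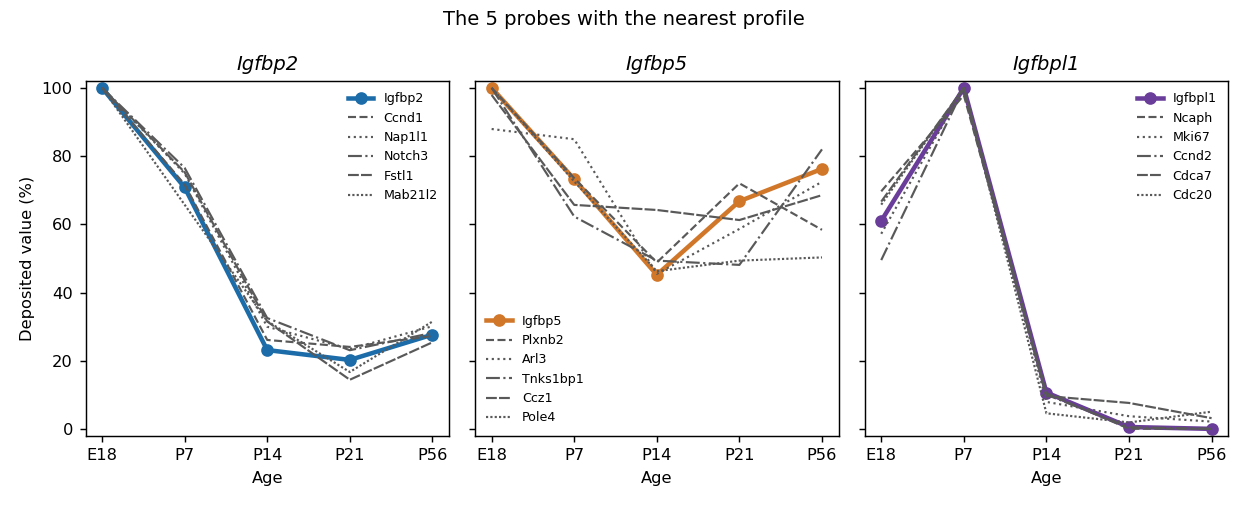
Deposited values in percent at the 5 ages for Igfbp2, Igfbp5 and Igfbpl1 (coloured, 1 panel each) and for the 5 named probes nearest to each (grey). The nearest profiles of Igfbp2 and Igfbpl1 run within 4.18 and 3.44 points of them on average, while those of Igfbp5 lie 5.41 to 9.02 points away and spread most at P21 and P56.

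Of 66 further genes of the IGF pathway (ligands, receptors, binding proteins, proteases and signalling steps), 5 were measured. Of these 3 were lower at P56 than at E18 and 1 was higher, with a median log2 difference of -1.05 against -1.07 over all probes. Igfbp4, whose protein binds IGFs and is cut by the protease PAPP-A, stood at 92.6%, 92.6%, 43.4%, 32.2% and 20.8% from E18 to P56. It was 4.45-fold lower at P56 than at E18 and, unlike Igfbp2 and Igfbp5, lay highest at E18 and P7 alike and lowest at P56. Htra1, which encodes a secreted serine protease that can cut IGF binding proteins, ran the other way, with 9.45%, 22.1%, 77.3%, 92.2% and 100%. It was 10.6-fold higher at P56 than at E18.

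Socs2, which encodes a suppressor of growth hormone and cytokine signalling, stood at 78.8%, 84.2%, 92.9%, 22.0% and 19.1%. It was high through P14 and then 4.23-fold lower at P21 than at P14, later than Igfbp2 and Igfbpl1. Eif4ebp2, a repressor of translation controlled by mTOR, was 2.07-fold lower at P56 than at E18, with 46.5% against 96.4%. Ptpn1, the gene of a phosphatase that acts on the insulin receptor, stayed within 2-fold, with 59.6% at P56 and 88.2% at E18. The IGF ligands and their receptors were not analysed here, since none of them is among the named probes.

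**Figure D4:**
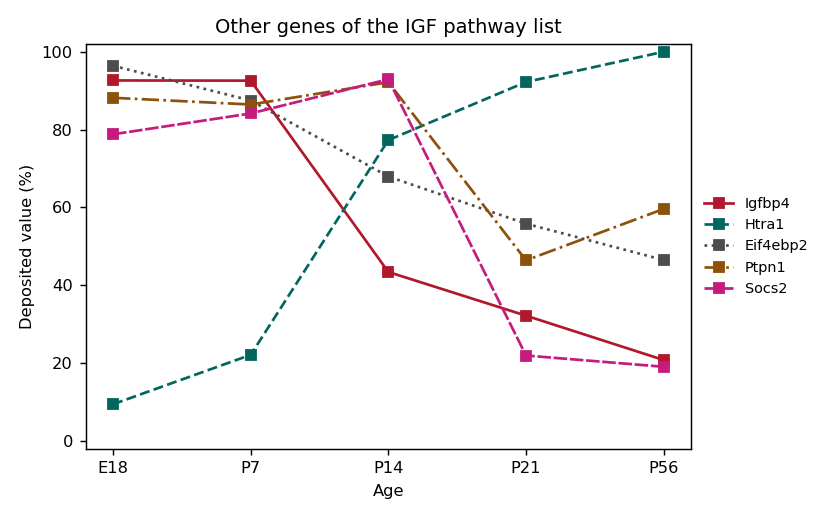
Deposited values in percent at the 5 ages for the 5 measured genes of the IGF pathway list other than Igfbp2, Igfbp5 and Igfbpl1. Igfbp4 and Socs2 end at 20.8% and 19.1%, Eif4ebp2 and Ptpn1 at 46.5% and 59.6%, and Htra1 is at 100% at P56 and 9.45% at E18.

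Markers of the cell types in and around the tissue moved with the same ages, and their part in the values of the 3 genes was not tested. Of all probes, 52.5% were lower and 22.6% higher at P56 than at E18, with a median log2 difference of -1.07. At P14 against P7, 24.7% of all probes were lower and 14.4% higher. All 19 measured genes of 28 for dividing cells were lower at P56 than at E18 (median log2 -3.70) and lower at P14 than at P7, the step at which Igfbp2 and Igfbpl1 fell. Their values ran between 4.43% and 27.8% at P14 and between 80.2% and 100% at P7. Hmgb2, a chromatin protein gene, stood at least 83.4-fold below E18 at P56 and Ccna2, the cyclin A2 gene, 64.3-fold lower. All 5 measured genes of 15 for granule cell progenitors and Hedgehog signalling were lower at P56 than at E18 (median -2.07), with Ccnd2 at least 49.5-fold and Mycn, a Myc family gene, 40.7-fold lower. Of 12 measured genes of 23 for immature neurons 11 were lower (median -2.26), led by the transcription factor genes Sox11 (52.2-fold) and Sox4 (39.1-fold).

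Beside Igfbp2, the 1 measured gene for choroid plexus and most measured genes for meninges and fibroblasts were also lower at P14 than at P7. Ttr, the transthyretin gene and the 1 measured gene of 13 for choroid plexus, stood at 100%, 56.7%, 17.1%, 20.4% and 62.9% from E18 to P56. Of 9 measured genes of 21 for meninges and fibroblasts 7 were lower at P56 than at E18 (median -1.76), and 7 were lower at P14 than at P7. Nid1, a basement membrane gene, was 7.90-fold and Serpinh1, the collagen chaperone gene, 7.33-fold lower at P56 than at E18. The list ran between 59.9% and 100% at E18, between 23.0% and 42.3% at P14, between 13.2% and 68.3% at P21, and between 12.1% and 100% at P56. Ptgds, the prostaglandin D synthase gene, was the lowest of the list at E18 and the highest at P21 and P56. Col1a2, Col3a1 and Serpinh1 of this list, whose measured genes make up 1.16% of the named genes, were among the 20 named probes nearest to Igfbp2. Ccnd1 of the granule cell progenitor list and Nrp1 of the immature neuron list were also among the 20. Likeness to Igfbp2 chose these probes, so their shared shape is no finding. Of 4 measured genes of 16 for endothelial cells and pericytes 3 were lower at P56 than at E18 (median -1.93, against -1.07 over all probes). The collagen genes Col4a1 and Col4a2 were 7.66-fold and 4.05-fold lower. Of the 4 endothelial and pericyte genes, 1 was lower at P14 than at P7.

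Lists of mature neurons and glia were mostly higher at P56 than at E18, where Igfbp2 and Igfbpl1 were lower. Of 10 measured genes of 14 for mature granule cells 9 were higher at P56 than at E18 (median 2.65), with the GABA-A receptor genes Gabra6 and Gabrd higher by at least 99.8-fold and 79.5-fold. All 5 measured genes of 14 for Purkinje cells were higher (median 2.07), among them Pvalb, the parvalbumin gene, by 40.8-fold and Atp2a3, a calcium pump gene with 2 probes, by at least 37.3-fold. Of 7 measured genes of 18 for astrocytes and Bergmann glia 5 were higher and 2 lower (median 2.45). Agt, the angiotensinogen gene, was 16.4-fold and S100b, a glial calcium-binding protein gene, 16.1-fold higher. The 2 lower genes were Tnc (10.1-fold) and Id3 (5.69-fold). At P14 against P7, 2 of the 7 were lower, again Tnc and Id3, and 3 were higher. Of 6 measured genes of 14 for oligodendrocytes and myelin 5 were higher and 1 lower (median 3.94). The myelin genes Mobp and Mag were 55.9-fold and at least 54.7-fold higher, and Pdgfra was 3.79-fold lower. Of 2 measured genes of 11 for microglia 1 was higher, Ctss, the cathepsin S gene, by 3.36-fold, while Laptm5 stood at 48.9% at P56 and 80.4% at E18. Of 7 erythroid genes 0 were among the named probes. None of the 20 named probes nearest to Igfbp5 belonged to any of these lists.

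**Figure D5:**
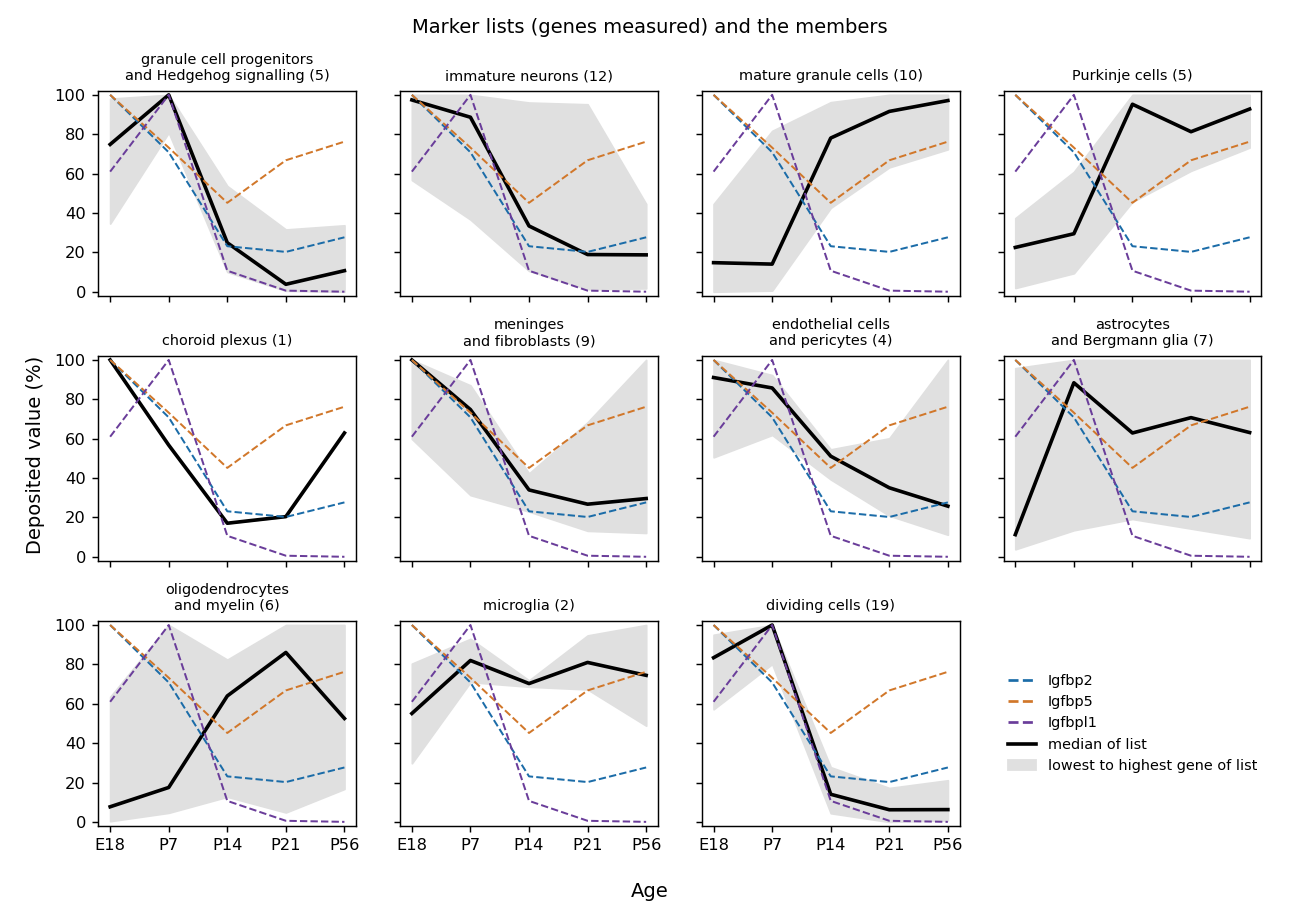
Median (black) and lowest to highest gene (grey) of each marker list at the 5 ages, as deposited values in percent, with Igfbp2, Igfbp5 and Igfbpl1 as dashed lines; the number of measured genes is in brackets. The median of dividing cells is 14.0% at P14 and 100% at P7, and Igfbpl1 lies at 10.7% at P14 and 100% at P7.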

How the data were processed

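Total RNA of mouse cerebellum at 5 ages was measured on arrays, 1 sample per age. Per the labels, the authors deposited the mean signal of 2 array experiments for each age. The deposited values were read as percent of each probe's highest age within each experiment, averaged over both: of 897 probes 420 stand at exactly 100 at 1 age and 0 at 2 or more, and 477 have a highest value under 100, the lowest of these 67.0. This scale is read from the values; no source used here gives the background correction, scaling or choice of probes. Symbols came from the platform's annotation (787 probes with 1 symbol, 16 with several, 94 with none); 784 of the 787 matched RefSeq by gene identifier with 0 changed symbols.

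Differences are log2 of the percent, with a floor of 1% (20 values lay below) and a 2-fold rule. For lists, log2 values of a gene's 2 probes were averaged. The value of each experiment was bounded between 2 times the mean minus 100 (or 0 where that is negative) and 2 times the mean (or 100 where that is larger). The calculation (Python 3.11.15, numpy 2.4.6, pandas 2.3.3) was tested on simulated data.

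The genes, the 12 marker lists and the IGF pathway list, and the 1% floor, were chosen with earlier results of these data known. Named genes were the 3 members, the 5 nearest probes of each, all measured IGF pathway genes and the 2 most changed genes of each list. Others (Col1a2, Col3a1, Ptgds, Nrp1, Tnc, Id3 and Pdgfra) were named after their values were seen. Alternatives were other floors, a pseudocount, 2 scalings between columns, folds of 1.5 and 3, a filter at 1%, other ages and other measures of likeness.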

Additional observations from a re-analysis of the deposited data

How the results depend on the processing

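No paired analysis was possible because each age has 1 column and no replicate numbers. Of 90 counts of members or of IGF pathway genes under the alternatives, 81 were unchanged or within 1.5 times their value in the report. Most of these 81 were counts of 0 that stayed at 0. The pathway counts could not move, since each of these genes has 1 probe. Counts of 3 lower members in place of 2 also passed this rule. They arose for P14 against P7 with a 1.5-fold threshold and for P56 against E18 with P14 in place of P56. Of 75 log2 differences of the members 67 kept their side of 2-fold without a reversal of sign. Among these 67 were values of Igfbpl1 at P56 against P21, where the difference in the report is 0 and has no direction. It was -0.61 with the pseudocount and 0.01 with columns divided by their medians. For P56 against E18 the count of lower members was 1 in place of 2 with columns divided by their medians and with probes at or above 1% alone. For P7 against E18 the count of higher members was 1 in place of 0 with quantile normalization (Igfbpl1 at 1.08) and with a 1.5-fold threshold. For P21 against P14 the count of lower members was 0 in place of 1 with the 10th percentile as floor, or with probes at or above 1% alone. For P56 against P21 it was 1 in place of 0 with the smallest value as floor, with quantile normalization and with P14 in place of P21, the last chosen after seeing the data. In each of these 3 it was Igfbpl1, whose values at P21 and P56 both lie under 1%. Signs turned for Igfbp5 at P56 against E18 with columns divided by their medians (0.62), and for Igfbp2 at P21 against P14 with that scaling (0.20) and with quantile normalization (0.44); these differences are all within 2-fold, and the cause was not tested. Igfbpl1 at P56 against E18 ranged between -10.99 and -1.58, by construction of the floors. Counts over all probes moved more: lower at P56 than at E18 between 147 and 582 in place of 471, and higher between 135 and 272 in place of 203; lower at P14 than at P7 between 104 and 447 in place of 222, and higher between 53 and 238 in place of 129. Lower at P7 than at E18 were between 1 and 81 in place of 25 and higher between 20 and 129 in place of 52. Lower at P21 than at P14 were between 38 and 311 in place of 118, and higher between 4 and 63 in place of 29; lower at P56 than at P21 were between 4 and 78 in place of 20, and higher between 9 and 82 in place of 24. Of the 5 nearest probes, 3 remained for Igfbp2 on the log2 scale, 2 for Igfbp5 by the largest difference at any age, and for Igfbpl1 3 by the largest difference and 2 on the log2 scale.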
